A study of Mus musculus with 12 samples.

Results

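Complement and coagulation genes of the liver were followed in RNA sequencing of mouse liver. The set held 44 genes, chosen by a list of symbols, of the 55357 genes in the count table, and every one of them had at least 200 counts in every library and passed the filter on low counts that left 17358 genes. Liver RNA came from 12 male C57BL/6J mice that were 7 weeks old at the start and 13 weeks old after 6 weeks of diet. KO mice (PPARa fl/fl AlbuminCre Tg/+) lacked PPARα in hepatocytes, where the albumin promoter drives the Cre recombinase, and WT mice (PPARa fl/fl AlbuminCre +/+) carried the same floxed alleles without the transgene. The groups were WT mice on chow (WT chow, n = 4), KO mice on chow (KO chow, n = 2), WT mice on CDAHFD, a high fat diet without choline whose protein is replaced by amino acids (WT CDAHFD, n = 3), and KO mice on CDAHFD (KO CDAHFD, n = 3). The study's methods state 3 mice per group, and the labels gave the numbers used here.

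Hepatocytes secrete most of the clotting factors, their inhibitors and the complement components of plasma. In the coagulation cascade, zymogens of serine proteases activate each other on membranes until thrombin (F2) cuts fibrinogen, and plasmin (from Plg) dissolves the fibrin. The complement cascade starts from antibodies through C1, from sugars on microbes through the mannose-binding lectins and their MASP proteases, or by itself through C3 and factor B, and ends in a pore of C5b to C9. C1q is made mainly by macrophages, and factor VIII (F8) mainly by endothelial cells.

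Total counts per library ran from 29906785 to 43551003. Levels are given as CPM (read counts relative to the size of the library) scaled by edgeR's TMM factors, in the order of the replicate numbers, and each adjusted p is from edgeR's quasi-likelihood test over 17358 genes with a threshold of 0.05. A log2 fold change is given as its value ± its standard error (SE). Nothing in the labels says how the samples of a group are related beyond their being separate, so a p measures the spread between these samples. In whole liver, fewer cells of a type and less RNA per cell cannot be told apart. Ppara, the targeted gene, was at a lower level in every library of KO chow (14.4 and 38.7 CPM) and KO CDAHFD (36.3, 20.7 and 51.9 CPM) than in WT chow (120.1, 96.2, 238 and 226 CPM), with WT CDAHFD between them (59.5, 75.5 and 73.5 CPM).

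Libraries stood apart in several ways. WT chow replicate 1 had 668 CPM of the acute phase gene Saa1, against 43.95 to 54.5 CPM in the other WT chow libraries, and values without it are given for fibrinogen, C3, C4b and Cfb. A score of clock genes put WT chow replicates 1 and 2 at -3.69 and -3.54 and replicates 3 and 4 at 2.58 and 2.86 on a log2 scale. KO CDAHFD was split in the same way, with replicate 3 at 3.22 and replicates 1 and 2 at -1.997 and -1.917, as was KO chow with -3.06 and 0.72, while the WT CDAHFD scores lay between -2.54 and -1.49. Both KO chow libraries lay nearer to CDAHFD than to WT chow in Col1a1, a collagen gene, with 180.0 and 149 CPM against 20.3, 4.44, 4.43 and 4.72 CPM in WT chow and 259.8, 244 and 231 CPM in WT CDAHFD. Summed over 7 hepatocyte markers, the level ran from 114000 to 123900 CPM in WT chow and 108000 to 115500 CPM in KO chow, and from 68630 to 80710 CPM in WT CDAHFD and 64880 to 84410 CPM in KO CDAHFD. Alb and Trf, the markers at the highest levels, weigh most in this sum. The part of these differences in the results was not tested.

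Promoter sequence is shown for the fibrinogen genes, which are neighbours and moved together, and for C1qc, which moved the other way. RefSeq windows on GRCm38.p6, from 250 bases before to 50 bases after a start site, were matched for 34 of the 44 genes (36 windows). The stretches below end at the base before the RefSeq start site, are written 5′ to 3′ on the strand of the gene, and have matches to the searched letters in capitals. In GENCODE M21, Fga starts at 83026076 and C1qc at 136893065, inside their stretches. Part of these 2 stretches therefore lies within the gene by that annotation.
Fga, chr3:83026013-83026152, plus strand: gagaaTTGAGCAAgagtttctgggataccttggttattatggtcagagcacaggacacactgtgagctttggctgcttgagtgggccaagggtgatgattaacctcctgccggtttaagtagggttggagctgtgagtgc
Fgb, chr3:83049864-83050003, minus strand: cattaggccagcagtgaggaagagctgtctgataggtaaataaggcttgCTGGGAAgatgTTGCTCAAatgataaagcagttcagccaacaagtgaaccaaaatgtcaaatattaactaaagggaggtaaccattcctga
Fgg, chr3:83007584-83007723, plus strand: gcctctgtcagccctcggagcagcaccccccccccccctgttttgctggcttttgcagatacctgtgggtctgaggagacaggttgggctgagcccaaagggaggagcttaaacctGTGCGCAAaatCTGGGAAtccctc
C1qc, chr4:136892915-136893114, minus strand: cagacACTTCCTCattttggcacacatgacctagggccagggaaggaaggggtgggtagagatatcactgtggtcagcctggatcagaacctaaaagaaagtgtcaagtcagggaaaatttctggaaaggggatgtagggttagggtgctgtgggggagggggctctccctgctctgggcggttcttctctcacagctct

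Both strands were searched, and capitals mark a C/EBP motif (TTGCGCAA with up to 1 mismatch) in Fga, Fgb and Fgg, an IL-6 response motif (CTGGGAA) in Fgb and Fgg, and a PU.1 motif (GAGGAAGT) in C1qc. C/EBP factors are regulators of hepatocyte genes, and PU.1 is one of macrophage genes. The C/EBP letters were in 8 of the 36 windows (22.2%), against 5.92% of all 32851 windows, and those windows also included C3, C8g, F9, Kng2 and Serpinc1. The IL-6 response letters were in 7 (19.4%) against 11.1%, and the PU.1 letters in 1 (2.78%) against 3.2%. Part of a direct repeat of nuclear receptors (AGGTCANAG, no mismatch allowed) was in 0 of the 36 windows and in 2.01% of all windows. HNF4α and PPARα bind the full kind of site, which was not searched. At so low a share of all windows, 0 of 36 cannot show that such sites are lacking. Matches describe letters in these windows and nothing about binding.

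Relative to WT chow, 32 of the 44 genes were lower in KO chow (17.0% of all genes tested were) and 5 were higher (22.0% of all genes). In WT CDAHFD, 35 were lower (25.0% of all genes) and 3 were higher (26.1%). In KO CDAHFD, 34 were lower (25.4%) and 3 were higher (26.9%). The median log2 fold change of the 44 genes was -0.66 for KO chow, -0.87 for WT CDAHFD and -0.83 for KO CDAHFD, against 0.002, -0.048 and -0.040 over all genes tested. These 3 comparisons share the WT chow libraries. The 5 genes higher in KO chow were Pros1, C1qa, C1qb, C1qc and Mbl2, and the 3 higher in each CDAHFD group were the C1q genes.

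The direction of the bulk of genes depended on the scaling, because the TMM factors ran from 0.729 to 0.827 in WT chow and from 1.03 to 1.26 in the other groups. With library size as the only scaling, the median of all genes rose to 0.40 for KO chow, 0.51 for WT CDAHFD and 0.57 for KO CDAHFD, and the calls moved with it. For KO chow, 7 of the 44 genes were then higher (40.5% of all genes tested) and 17 lower (6.62%). For WT CDAHFD, 6 were higher (52.4%) and 20 lower (6.74%), and for KO CDAHFD 7 were higher (56.3%) and 21 lower (6.31%). The distance of the 44 genes' median from that of all genes was -0.66, -0.82 and -0.80 under that scaling, and -0.66, -0.82 and -0.79 with TMM. A change of scaling moves all genes of a comparison by about the same amount. This distance could therefore hardly differ between the scalings, and its likeness is no separate result. Falls and rises below are therefore changes relative to the bulk of genes. As a share of all counts, the 44 genes together took 4.08% to 5.13% of a WT chow library, 3.99% and 4.10% of the KO chow libraries, 3.74% to 3.86% of a WT CDAHFD library and 3.60% to 3.74% of a KO CDAHFD library.

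**Figure D1:**
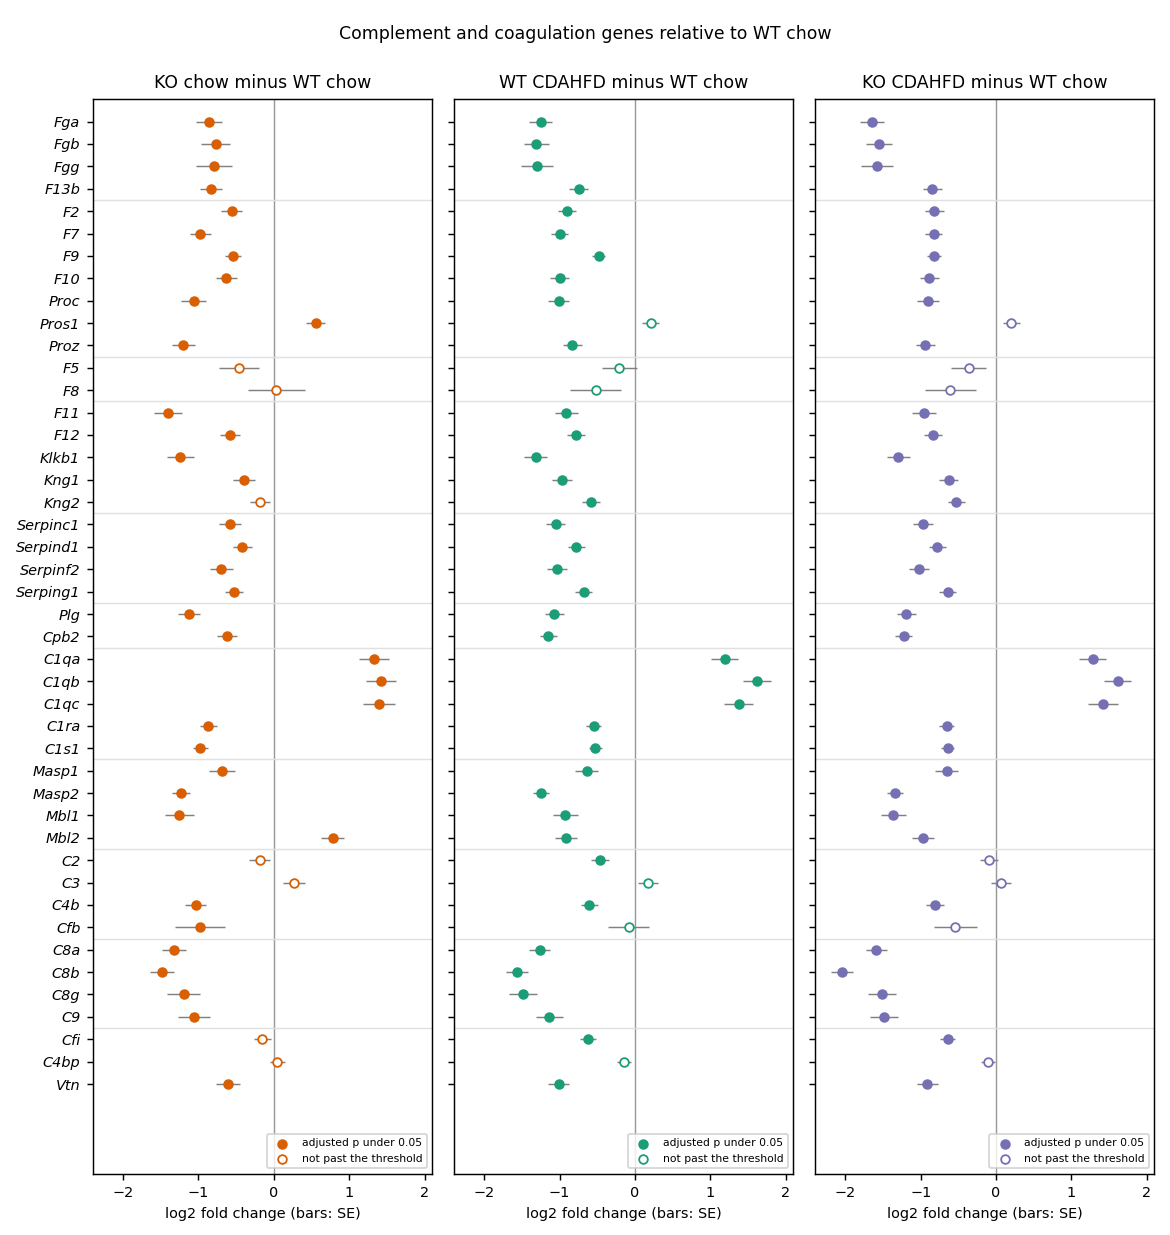
Log2 fold changes relative to WT chow of the 44 genes, ordered by role, with 1 panel each for KO chow, WT CDAHFD and KO CDAHFD (points, with bars for the SE, filled where the adjusted p was under 0.05). Most points lie left of 0 in all panels, the C1q genes lie right of 0, and Mbl2 changes side between KO chow (0.78) and the CDAHFD groups (-0.91 and -0.97).

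Fibrinogen is a hexamer of the chains encoded by Fga (ENSMUSG00000028001, chromosome 3 from 83026076 to 83033627), Fgb and Fgg, which stand next to each other on chromosome 3, with 11027 bases between Fgg and Fga and 6514 between Fga and Fgb. Fga was at 8732, 6778, 5693 and 6359 CPM in WT chow, 3897 and 3715 CPM in KO chow, 3112, 2670 and 2918 CPM in WT CDAHFD, and 2238, 2390 and 1975 CPM in KO CDAHFD. The groups fell in that order, with no overlap between WT chow and any other group. Fgb, the beta chain, was at 7682, 6182, 4980 and 5590 CPM in WT chow, 3720 and 3432 CPM in KO chow, 2609, 2220 and 2564 CPM in WT CDAHFD, and 2076, 2446 and 1739 CPM in KO CDAHFD. KO chow again lay between WT chow and CDAHFD. The log2 fold change of Fga from WT chow was -0.86 ± 0.17 at an adjusted p of 0.00195 in KO chow, -1.25 ± 0.15 at an adjusted p of 2.39e-05 in WT CDAHFD and -1.65 ± 0.16 at an adjusted p of 2.39e-06 in KO CDAHFD, or 55.2%, 42.1% and 31.9% of the WT chow level. Fgb changed by -0.77, -1.31 and -1.55 and Fgg by -0.79, -1.30 and -1.58 in the same order, all past the threshold. Fga and Fgb were also lower in KO CDAHFD than in KO chow, with log2 fold changes of -0.79 ± 0.18 at an adjusted p of 0.0223 and -0.78 ± 0.19 at an adjusted p of 0.0339, while Fgg differed by -0.79 ± 0.24 at an adjusted p of 0.0753. WT chow replicate 1, the library with high Saa1, had the highest level of each chain in its group. Without it, Fga changed by -0.71 at an adjusted p of 0.00100 in KO chow and -1.09 at an adjusted p of 9.78e-06 in WT CDAHFD on the log2 scale, and Fgb and Fgg changed by -0.63 at an adjusted p of 0.00651 and -0.61 at an adjusted p of 0.0278 in KO chow. The KO chow fall of Fgb missed the threshold without KO chow replicate 2, at -0.71 at an adjusted p of 0.0561, and that of Fgg without KO chow replicate 1 or 2, at -0.93 at an adjusted p of 0.0521 and -0.65 at an adjusted p of 0.143.

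F13b, the carrier subunit of the factor XIII that crosslinks fibrin, was at 243, 314, 305 and 347 CPM in WT chow, 152 and 188 CPM in KO chow, 184, 172 and 185 CPM in WT CDAHFD, and 168, 170.4 and 165 CPM in KO CDAHFD. All libraries outside WT chow lay between 152 and 188 CPM and thus below every WT chow library. Its change was -0.83 ± 0.14 at an adjusted p of 6.30e-04 in KO chow, -0.75 ± 0.13 at an adjusted p of 3.06e-04 in WT CDAHFD and -0.85 ± 0.13 at an adjusted p of 1.06e-04 in KO CDAHFD. Per kilobase of exon, Fga was the highest of the 44 genes in WT chow, at a mean of 2289 CPM per kb, and C3 the highest in the other groups, at 1834 CPM per kb in KO chow, 1718 CPM per kb in WT CDAHFD and 1600 CPM per kb in KO CDAHFD.

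**Figure D2:**
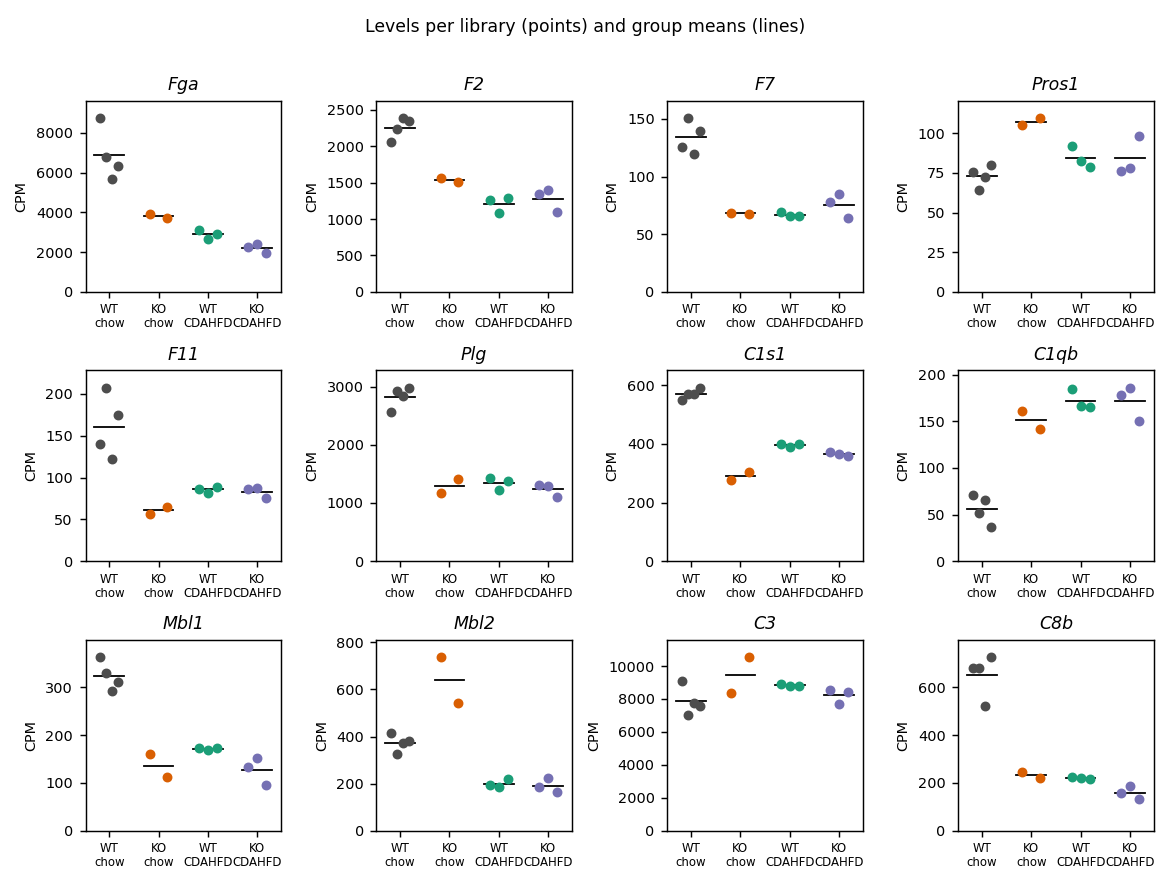
CPM of 12 of the genes in each library (points, in replicate order) with group means (lines), all axes starting at 0. Fga steps down from WT chow over KO chow to the CDAHFD groups, C1qb is above WT chow in all other groups, Mbl2 is highest in KO chow (738 and 544 CPM), and C3 in WT chow overlaps with each other group.

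The vitamin K dependent proteins carry gamma-carboxylated glutamates with which they bind membranes. Of 7 genes, 6 were lower in each comparison with WT chow. Prothrombin (F2) was at 2052, 2234, 2382 and 2352 CPM in WT chow, 1557 and 1504 CPM in KO chow, 1264, 1077 and 1285 CPM in WT CDAHFD, and 1344, 1394 and 1099 CPM in KO CDAHFD. WT chow stood above the rest, and KO chow above the CDAHFD groups, and the log2 fold change was -0.56 ± 0.14 at an adjusted p of 0.00646 in KO chow and -0.90 ± 0.12 at an adjusted p of 5.34e-05 in WT CDAHFD. Without KO chow replicate 2, the KO chow value was -0.53 at an adjusted p of 0.0511. F7, the protease that starts clotting together with tissue factor, was at 126, 150.5, 119.9 and 139.8 CPM in WT chow, 68.6 and 67.8 CPM in KO chow, 69.2, 66.2 and 65.5 CPM in WT CDAHFD, and 78.2, 84.5 and 63.7 CPM in KO CDAHFD. The libraries outside WT chow lay between 63.7 and 84.5 CPM, all below WT chow, and the log2 fold change was -0.97 ± 0.13 at an adjusted p of 1.06e-04 in KO chow, -1.001 ± 0.12 at an adjusted p of 1.49e-05 in WT CDAHFD and -0.83 ± 0.12 at an adjusted p of 6.45e-05 in KO CDAHFD. Its neighbours on chromosome 8, F10 (factor X, which cuts prothrombin, 1499 bases from F7) and Proz (protein Z, a cofactor in the inhibition of factor Xa, 4238 bases from F10), also fell. F10 was at 489.6, 544, 511 and 516 CPM in WT chow, 329.6 and 335 CPM in KO chow, 259.9, 232 and 281 CPM in WT CDAHFD, and 278, 325 and 234 CPM in KO CDAHFD. Proz was at 449.7, 494, 503 and 551 CPM in WT chow, 179 and 256 CPM in KO chow, 298, 263 and 280.1 CPM in WT CDAHFD, and 263, 258 and 260.5 CPM in KO CDAHFD. F10 was higher in KO chow than in any CDAHFD library, whereas the KO chow libraries of Proz lay below all the others, with log2 fold changes from WT chow of -0.63 and -1.20 ± 0.15 at an adjusted p of 4.35e-05. In WT CDAHFD they were -0.999 ± 0.12 at an adjusted p of 2.15e-05 and -0.83.

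Proc, the zymogen of the anticoagulant protein C, was at 551, 694, 721 and 732 CPM in WT chow, 318 and 328 CPM in KO chow, 349, 298 and 358 CPM in WT CDAHFD, and 366, 418 and 298 CPM in KO CDAHFD. The KO chow level was 47.9% of that of WT chow, against 49.6% for WT CDAHFD and 53.5% for KO CDAHFD, and the log2 fold change in KO chow was -1.06 ± 0.16 at an adjusted p of 2.60e-04. Pros1 (protein S, the cofactor of activated protein C) moved the other way, at 75.9, 64.1, 72.4 and 79.8 CPM in WT chow, 105 and 109 CPM in KO chow, 91.8, 82.7 and 78.6 CPM in WT CDAHFD, and 76.1, 77.99 and 98.3 CPM in KO CDAHFD. Both KO chow libraries were above all the others, and WT CDAHFD and WT chow overlapped. The log2 fold change was 0.56 ± 0.13 at an adjusted p of 0.00438 in KO chow, 0.21 ± 0.12 at an adjusted p of 0.152 in WT CDAHFD and 0.20 ± 0.12 at an adjusted p of 0.156 in KO CDAHFD. Protein S is also made outside hepatocytes, among others by endothelial cells and macrophages. Summed over 6 endothelial markers, the level was 178 to 272 CPM in WT chow, 169 and 250 CPM in KO chow, and 121 to 214 CPM in the CDAHFD groups. Summed over 12 macrophage markers, it was 450 to 790 CPM in WT chow, 1757 and 1944 CPM in KO chow, and 2180 to 3107 CPM in the CDAHFD groups. The part of these cells in the rise of Pros1 was not tested. F9 (factor IX) had the smallest of the 6 falls in WT CDAHFD, at -0.48 ± 0.09 at an adjusted p of 7.83e-04, and changed by -0.54 in KO chow and -0.82 in KO CDAHFD.

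The cofactors F5 and F8, which speed up the proteases factor Xa and factor IXa, passed the threshold in no comparison. F5 ran from 407 to 996 CPM over the 12 libraries, and its log2 fold change was -0.47 ± 0.27 at an adjusted p of 0.188 in KO chow and -0.21 ± 0.23 at an adjusted p of 0.483 in WT CDAHFD. F8 was the lowest of the 44 genes per kilobase, at 1.74 CPM per kb in WT chow, and its fold change was 0.04 ± 0.38 at an adjusted p of 0.953 in KO chow and -0.61 ± 0.34 at an adjusted p of 0.155 in KO CDAHFD. In WT chow, F5 was 580 and 598 CPM in the libraries with a low clock score and 928 and 996 CPM in those with a high one. With the clock score as a covariate, F5 was lower in KO chow, at -0.38 at an adjusted p of 0.0370, and in KO CDAHFD, at -0.36 at an adjusted p of 0.0221.

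In the contact system, which starts clotting on negatively charged surfaces and releases bradykinin, 4 of 5 genes were lower in KO chow (17.0% of all genes tested). In each CDAHFD group 5 of 5 were lower (25.0% of all genes in WT CDAHFD and 25.4% in KO CDAHFD). F11 (factor XI) was at 139.6, 207, 122 and 175 CPM in WT chow, 56.8 and 65.1 CPM in KO chow, 86.3, 81.99 and 89.1 CPM in WT CDAHFD, and 86.5, 87.9 and 75.5 CPM in KO CDAHFD. The KO chow libraries were the lowest of the 12, at 37.9% of the WT chow mean, with a log2 fold change of -1.40 ± 0.19 at an adjusted p of 8.63e-05, against -0.91 ± 0.16 at an adjusted p of 4.16e-04 in WT CDAHFD. Klkb1, plasma prekallikrein and the neighbour of F11 on chromosome 8, was at 253, 315, 301 and 359 CPM in WT chow, 111 and 149 CPM in KO chow, 122, 116 and 131 CPM in WT CDAHFD, and 109, 146 and 119 CPM in KO CDAHFD. It changed by -1.24 ± 0.18 at an adjusted p of 1.33e-04 in KO chow, -1.32 ± 0.15 at an adjusted p of 1.38e-05 in WT CDAHFD and -1.30 ± 0.15 at an adjusted p of 1.44e-05 in KO CDAHFD. Of its exon bases, 43.2% are shared with Gm45753, a gene that held 0 to 5 counts in the libraries. How reads in the shared bases were counted is not known, so the level of Klkb1 is uncertain.

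Kng1, a kininogen that carries bradykinin, was at 2252, 2630, 2516 and 2875 CPM in WT chow, 1807 and 2082 CPM in KO chow, 1400, 1197 and 1331 CPM in WT CDAHFD, and 1527, 1897 and 1551 CPM in KO CDAHFD. The groups did not overlap with WT chow, and the KO chow libraries lay above most of the CDAHFD libraries. The log2 fold change was -0.40 ± 0.15 at an adjusted p of 0.0453 in KO chow and -0.97 ± 0.13 at an adjusted p of 4.97e-05 in WT CDAHFD, and KO chow was above WT CDAHFD by 0.57 ± 0.15 at an adjusted p of 0.0443. The KO chow fall was close to the threshold and missed it in 9 of 12 fits that left out a library, with values from -0.50 to -0.29. Kng2, its neighbour on chromosome 16, changed in WT CDAHFD by -0.58 ± 0.11 at an adjusted p of 9.75e-04, but not past the threshold in KO chow, at -0.19 ± 0.13 at an adjusted p of 0.276. The 2 kininogens are close copies and can share reads. F12 (factor XII, which starts the system) changed by -0.58 in KO chow, by -0.78 in WT CDAHFD and by -0.84 in KO CDAHFD, all past the threshold.

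All 4 serpins, the inhibitors that trap proteases, were lower in each comparison with WT chow. Serpinc1 (antithrombin) was at 2386, 2726, 2645 and 2694 CPM in WT chow, 1651 and 1834 CPM in KO chow, 1269, 1168 and 1343 CPM in WT CDAHFD, and 1331, 1549 and 1120 CPM in KO CDAHFD. The KO chow libraries lay between WT chow and CDAHFD, with a log2 fold change of -0.58 ± 0.15 at an adjusted p of 0.00668 in KO chow against -1.05 ± 0.13 at an adjusted p of 2.24e-05 in WT CDAHFD. The KO chow value missed the threshold without KO chow replicate 1, at -0.49 at an adjusted p of 0.0661. Serpinf2 (α2-antiplasmin) was at 1116, 1435, 1124 and 1136 CPM in WT chow, 725 and 759.7 CPM in KO chow, 618, 545 and 600.2 CPM in WT CDAHFD, and 602, 683 and 493 CPM in KO CDAHFD. Replicate 2 of WT chow stood above the rest of its group, and the fall was -0.70 ± 0.16 at an adjusted p of 0.00345 in KO chow and -1.03 ± 0.14 at an adjusted p of 4.38e-05 in WT CDAHFD. Serping1 (C1 inhibitor, which restrains both C1 and the contact system) was at 1052, 889.5, 930.5 and 996 CPM in WT chow, 724 and 615 CPM in KO chow, 628, 617 and 562 CPM in WT CDAHFD, and 599, 664 and 594 CPM in KO CDAHFD. It changed by -0.53 ± 0.12 at an adjusted p of 0.00459 in KO chow and -0.68 ± 0.11 at an adjusted p of 1.96e-04 in WT CDAHFD, and the KO chow fall missed the threshold without KO chow replicate 2, at -0.41 at an adjusted p of 0.0668. Serpind1 (heparin cofactor II) changed by -0.42, -0.78 and -0.78, listed in the order KO chow, WT CDAHFD, KO CDAHFD, with the KO chow value missing the threshold without KO chow replicate 1, at -0.28 at an adjusted p of 0.190.

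Plasminogen (Plg) was at 2554, 2922, 2830 and 2979 CPM in WT chow, 1171 and 1417 CPM in KO chow, 1424, 1228 and 1382 CPM in WT CDAHFD, and 1313, 1290 and 1103 CPM in KO CDAHFD. The WT chow libraries started at 2554 CPM and the others ended at 1424 CPM, and the log2 fold change was -1.12 ± 0.14 at an adjusted p of 5.06e-05 in KO chow, -1.07 ± 0.12 at an adjusted p of 1.26e-05 in WT CDAHFD and -1.19 ± 0.12 at an adjusted p of 4.76e-06 in KO CDAHFD. Cpb2, the carboxypeptidase known as TAFI that protects fibrin from plasmin, was at 405, 408, 354 and 415 CPM in WT chow, 266 and 248 CPM in KO chow, 183, 182 and 170.1 CPM in WT CDAHFD, and 166, 196 and 144 CPM in KO CDAHFD. KO chow lay between WT chow and CDAHFD without overlap. The log2 fold change was -0.62 ± 0.13 at an adjusted p of 0.00248 in KO chow and -1.15 ± 0.12 at an adjusted p of 4.70e-06 in WT CDAHFD, and Cpb2 was lower in KO CDAHFD than in KO chow, at -0.61 ± 0.13 at an adjusted p of 0.0219.

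**Figure D3:**
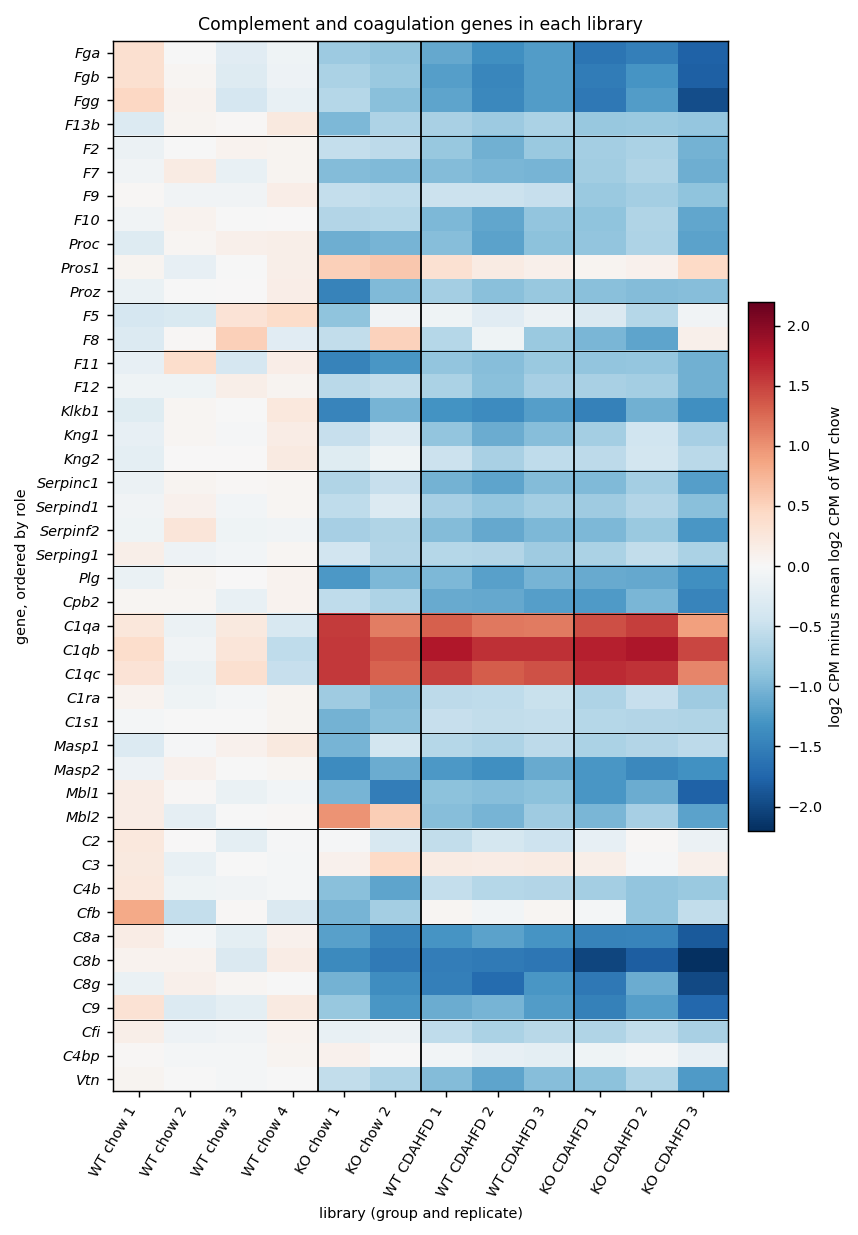
Log2 CPM of each of the 44 genes in each of the 12 libraries, minus the mean log2 CPM of WT chow (blue lower, red higher), with genes ordered by role and libraries by group. The C1q rows are red in all groups other than WT chow, Mbl2 is red in KO chow (737.7 and 544.3 CPM) only, and the C8 and fibrinogen rows are among the darkest blue in KO CDAHFD.

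C1 starts the classical pathway, with C1q as the part that recognises antibodies and C1r and C1s as its proteases. Its parts moved in opposite directions. C1qa (ENSMUSG00000036887, chromosome 4 from 136895917 to 136898803) was at 67.5, 51.9, 65.7 and 44.4 CPM in WT chow, 165 and 124 CPM in KO chow, 141, 126 and 125 CPM in WT CDAHFD, and 151, 162 and 105 CPM in KO CDAHFD. C1qb was at 70.8, 51.4, 65.4 and 36.8 CPM in WT chow, 161 and 141 CPM in KO chow, 185, 166 and 166 CPM in WT CDAHFD, and 178, 186 and 151 CPM in KO CDAHFD. C1qc was at 58.9, 43.1, 60.8 and 33.7 CPM in WT chow, 139.9 and 118 CPM in KO chow, 136, 121 and 126 CPM in WT CDAHFD, and 149.6, 144 and 100.5 CPM in KO CDAHFD. All 8 libraries outside WT chow were above all 4 WT chow libraries for each chain. C1qa rose 2.51-fold in KO chow, with a log2 fold change of 1.33 ± 0.19 at an adjusted p of 1.70e-04, and by 1.19 ± 0.18 at an adjusted p of 1.15e-04 in WT CDAHFD and 1.28 ± 0.18 at an adjusted p of 5.87e-05 in KO CDAHFD. C1qb rose by 1.43 ± 0.20 at an adjusted p of 1.15e-04, 1.62 ± 0.18 at an adjusted p of 1.12e-05 and 1.61, and C1qc by 1.39 ± 0.21 at an adjusted p of 2.46e-04, 1.38 and 1.42, in the same order. The C1q genes lie side by side on chromosome 4, with 3617 bases between C1qb and C1qc and 2852 between C1qc and C1qa.

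Markers of macrophages rose beside C1q. The summed level of 12 markers was 450 to 790 CPM in WT chow, 1757 and 1944 CPM in KO chow, 2292 to 3107 CPM in WT CDAHFD and 2180 to 2506 CPM in KO CDAHFD, and none of the markers was at 0 in a library. Of the 12, 10 were higher in KO chow (22.0% of all genes tested), and 8 were higher and 1 lower in each CDAHFD group. Of all genes, 26.1% were higher and 25.0% lower in WT CDAHFD, and 26.9% and 25.4% in KO CDAHFD. Cd68 rose by 1.998 ± 0.20 at an adjusted p of 7.80e-06 in KO chow and 3.29 ± 0.19 at an adjusted p of 5.16e-08 in WT CDAHFD, while Timd4, a marker of resident Kupffer cells, was at 12.03, 7.71, 11.8 and 7.38 CPM in WT chow, 13.7 and 17.4 CPM in KO chow, 0.246, 0.311 and 0.677 CPM in WT CDAHFD, and 1.36, 2.59 and 0.428 CPM in KO CDAHFD. The other resident markers did not share so deep a fall. Between WT chow and WT CDAHFD, the mean went from 129.7 to 292.3 CPM for Cd5l and from 30.25 to 37.74 CPM for Vsig4. It went from 142.7 to 96.77 CPM for Clec4f and from 15.29 to 11.25 CPM for Marco. The summed C1q level was 25.0% to 26.6% of the summed marker level in WT chow, 26.5% and 19.7% of it in KO chow, 14.5% to 18.2% of it in WT CDAHFD and 16.4% to 20.1% of it in KO CDAHFD. This share depends on the markers with the highest levels. From WT chow to WT CDAHFD, the mean of Lyz2 went from 84.14 to 984.9 CPM, of Ctss from 43.75 to 490.4 CPM and of Mpeg1 from 78.1 to 443.8 CPM. Adgre1 went from 25.79 to 70.32 CPM and Csf1r from 63.58 to 183 CPM. The part of the macrophage markers in the rise of C1q was not tested.

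**Figure D4:**
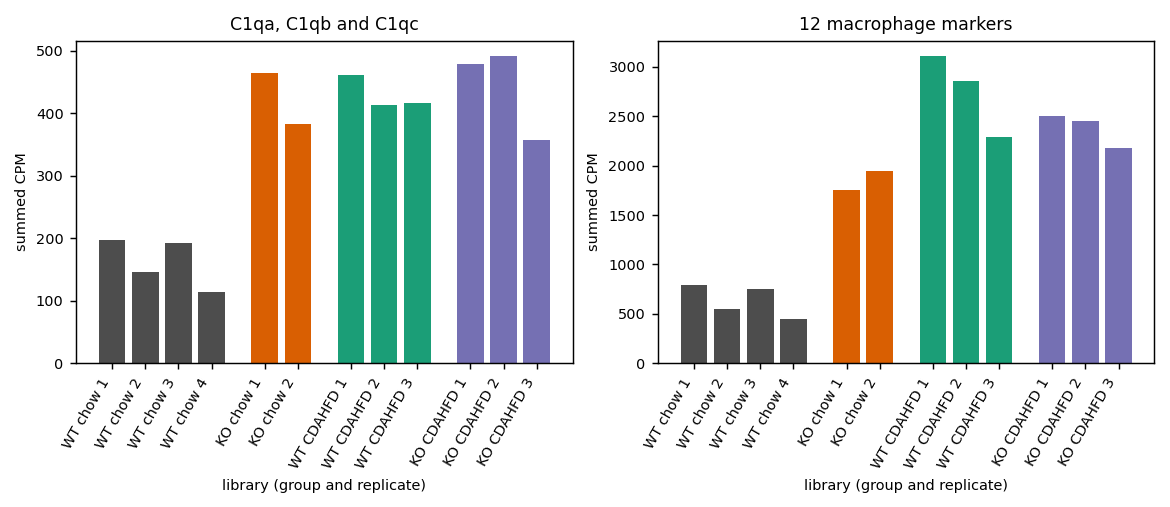
Summed CPM of C1qa, C1qb and C1qc (left) and of 12 macrophage markers (right) in each library, as bars coloured by group and starting at 0. Both are lowest in the WT chow libraries, at 115 to 197 CPM for C1q and 450 to 790 CPM for the markers, and the markers are higher in CDAHFD than in KO chow while C1q overlaps.

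The proteases of C1, which hepatocytes make, fell. C1ra was at 404, 360.0, 375 and 399 CPM in WT chow, 224 and 197 CPM in KO chow, 257, 259.5 and 273 CPM in WT CDAHFD, and 239, 270.2 and 223 CPM in KO CDAHFD. C1s1 was at 551, 570.0, 569 and 591 CPM in WT chow, 277 and 303 CPM in KO chow, 401, 391 and 398 CPM in WT CDAHFD, and 371, 366 and 359.9 CPM in KO CDAHFD. In each the KO chow libraries were lower than WT CDAHFD, and for C1s1 lower than every CDAHFD library. C1ra changed by -0.87 ± 0.12 at an adjusted p of 9.56e-05 in KO chow and -0.55 ± 0.10 at an adjusted p of 6.56e-04 in WT CDAHFD, and C1s1 by -0.98 ± 0.10 at an adjusted p of 1.09e-05 and -0.52 ± 0.09 at an adjusted p of 2.68e-04. C1s1 was lower in KO chow than in WT CDAHFD, at -0.45 ± 0.10 at an adjusted p of 0.0248. Both genes have close copies in the mouse genome with which they can share reads.

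The lectin pathway splits by gene. Mbl1 and Mbl2 encode the mannose-binding lectins A and C of the mouse. Mbl1 was at 363, 331, 292 and 312 CPM in WT chow, 159.6 and 113 CPM in KO chow, 172, 169 and 172 CPM in WT CDAHFD, and 134, 151 and 94.4 CPM in KO CDAHFD. Mbl2 (ENSMUSG00000024863, chromosome 19 from 30232942 to 30239687) was at 415, 326, 371 and 381 CPM in WT chow, 738 and 544 CPM in KO chow, 195, 183 and 217 CPM in WT CDAHFD, and 186, 224 and 164 CPM in KO CDAHFD. Mbl1 was below WT chow in every other group, whereas Mbl2 was above WT chow in both KO chow libraries and below it in all 6 CDAHFD libraries. For Mbl2, the log2 fold change was 0.78 ± 0.16 at an adjusted p of 0.00175 in KO chow, -0.91 ± 0.14 at an adjusted p of 1.97e-04 in WT CDAHFD and -0.97 ± 0.15 at an adjusted p of 1.18e-04 in KO CDAHFD. The KO chow rise ran from 0.56 to 0.99 when single libraries were left out, and was 0.56 without KO chow replicate 1. KO chow was above WT CDAHFD by 1.69 ± 0.17 at an adjusted p of 1.61e-04, and Mbl2 was lower in KO CDAHFD than in KO chow at -1.75 ± 0.17 at an adjusted p of 1.61e-04, or 29.8% of the KO chow level. For Mbl1 the values were -1.25 ± 0.19 at an adjusted p of 2.40e-04, -0.92 ± 0.16 at an adjusted p of 4.54e-04 and -1.36 ± 0.17 at an adjusted p of 2.03e-05.

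Masp2, the protease that cuts C4 and C2 on mannose-binding lectin, was at 202, 231, 215 and 223 CPM in WT chow, 83.05 and 102 CPM in KO chow, 90.5, 85 and 100.2 CPM in WT CDAHFD, and 89.9, 80.95 and 85.8 CPM in KO CDAHFD. Its KO chow level was 42.5% of that of WT chow, a log2 fold change of -1.23 ± 0.12 at an adjusted p of 8.53e-06, and its WT CDAHFD level 42.2%, a change of -1.24 ± 0.11 at an adjusted p of 1.13e-06. Its count is uncertain, since 54.9% of its exon bases lie opposite Tardbp, a gene with 3042 to 5650 counts per library (94.8% of those of Masp2 in all), and the libraries do not keep the strand. Masp1 changed by -0.69 ± 0.17 at an adjusted p of 0.00717 in KO chow and -0.64 in WT CDAHFD, and without KO chow replicate 1 the KO chow value was -0.39 at an adjusted p of 0.126.

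C3, on which all complement pathways converge, was at 9080, 7011, 7761 and 7574 CPM in WT chow, 8331 and 10540 CPM in KO chow, 8908, 8793 and 8812 CPM in WT CDAHFD, and 8565, 7716 and 8402 CPM in KO CDAHFD. WT chow overlapped with each other group, although the KO CDAHFD libraries lay below those of WT CDAHFD, and the log2 fold change was 0.26 ± 0.15 at an adjusted p of 0.176 in KO chow, 0.17 ± 0.13 at an adjusted p of 0.299 in WT CDAHFD and 0.07 ± 0.13 at an adjusted p of 0.695 in KO CDAHFD. Without WT chow replicate 1 it was higher in KO chow, at 0.36 at an adjusted p of 0.0440. C4b, which forms the C3 convertase with C2, was at 2326, 1863, 1883 and 1929 CPM in WT chow, 1059 and 891 CPM in KO chow, 1392, 1286 and 1267 CPM in WT CDAHFD, and 1185, 1096 and 1135 CPM in KO CDAHFD. WT chow was above the other groups without overlap, and KO chow below them, at -1.04 ± 0.14 at an adjusted p of 7.48e-05 in KO chow and -0.61 ± 0.12 at an adjusted p of 8.72e-04 in WT CDAHFD. Without WT chow replicate 1, which had the highest C4b, these were -0.94 at an adjusted p of 5.33e-05 and -0.50 at an adjusted p of 0.00132. C4b has a close copy, C4a, which was also lower in KO chow (-2.76) and WT CDAHFD (-3.48), and the copies can share reads. C2 was at 54.4, 46.3, 39.6 and 45.5 CPM in WT chow, 45.2 and 36.3 CPM in KO chow, 31.9, 35.3 and 33.8 CPM in WT CDAHFD, and 40.95, 47.2 and 42.1 CPM in KO CDAHFD. It was lower in WT CDAHFD, at -0.46 ± 0.12 at an adjusted p of 0.00645, and did not pass the threshold in KO chow (-0.19 ± 0.14 at an adjusted p of 0.298) or KO CDAHFD (-0.10 ± 0.12 at an adjusted p of 0.522). Cfb (factor B of the alternative pathway) was low, at 30.4, 11.8, 17.4 and 13.8 CPM in WT chow, 8.46 and 10.1 CPM in KO chow, 17.6, 16.5 and 17.7 CPM in WT CDAHFD, and 16.6, 9.41 and 11.8 CPM in KO CDAHFD. It was lower in KO chow, with a log2 fold change of -0.98 ± 0.33 at an adjusted p of 0.0329, a value that rests on WT chow replicate 1 and was -0.61 at an adjusted p of 0.0516 without it. Cfb and C2 stand 86 bases apart, and 79.5% and 42.8% of their exon bases are shared with Gm20547, a gene with 0 counts in every library. How reads in these shared bases were counted is not known, and they may have been left out. The levels of Cfb and C2 are therefore uncertain.

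The terminal components C8 and C9, which form the pore in a target membrane, had the largest median fall of any role in KO chow and WT CDAHFD. The median of the 4 genes was -1.26 for KO chow, -1.38 for WT CDAHFD and -1.55 for KO CDAHFD, where that of fibrinogen and F13b was -1.57. C8b (ENSMUSG00000029656, chromosome 4 from 104766317 to 104804548) was at 682, 682, 523 and 726 CPM in WT chow, 246 and 222 CPM in KO chow, 226, 220.4 and 215 CPM in WT CDAHFD, and 159, 185 and 132 CPM in KO CDAHFD. It was the lowest relative to WT chow of the 44 genes in each comparison, at 35.8% for KO chow, 33.8% for WT CDAHFD and 24.3% for KO CDAHFD, with log2 fold changes of -1.48 ± 0.16 at an adjusted p of 1.91e-05, -1.57 ± 0.14 at an adjusted p of 1.75e-06 and -2.04 ± 0.14 at an adjusted p of 2.26e-07. C8a, its neighbour on chromosome 4, was at 1557, 1346, 1195 and 1486 CPM in WT chow, 606 and 506 CPM in KO chow, 568, 615 and 562 CPM in WT CDAHFD, and 499, 505 and 387 CPM in KO CDAHFD. C8g was at 403, 483, 457 and 441 CPM in WT chow, 217 and 173 CPM in KO chow, 157, 138 and 183 CPM in WT CDAHFD, and 149, 208 and 112 CPM in KO CDAHFD. Again no library outside WT chow reached the WT chow range. C8a changed by -1.33 ± 0.16 at an adjusted p of 3.43e-05 in KO chow and -1.26 in WT CDAHFD, C8g by -1.19 ± 0.22 at an adjusted p of 8.55e-04 and -1.49, and C9 by -1.06 ± 0.21 at an adjusted p of 0.00163 and -1.14.

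Of the regulators, vitronectin (Vtn), which keeps the terminal complex from inserting, was at 3404, 3263, 3187 and 3233 CPM in WT chow, 2236 and 2046 CPM in KO chow, 1688, 1460 and 1713 CPM in WT CDAHFD, and 1755, 2068 and 1385 CPM in KO CDAHFD. It was at or above 3187 CPM in WT chow and at or below 2236 CPM elsewhere, a log2 fold change of -0.61 ± 0.16 at an adjusted p of 0.00797 in KO chow and -1.01 ± 0.14 at an adjusted p of 5.75e-05 in WT CDAHFD. The KO chow fall was -0.55 at an adjusted p of 0.0710 without KO chow replicate 2. Cfi, the protease that cuts C3b and C4b, was lower in WT CDAHFD (-0.62 ± 0.10 at an adjusted p of 2.37e-04) but not past the threshold in KO chow (-0.15 ± 0.11 at an adjusted p of 0.313), and KO chow was above WT CDAHFD by 0.47 ± 0.12 at an adjusted p of 0.0368. C4bp, the cofactor of factor I for C4b, ran from 629 to 783 CPM over all libraries, with 0.05 ± 0.11 at an adjusted p of 0.746 in KO chow and -0.15 ± 0.09 at an adjusted p of 0.202 in WT CDAHFD.

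On CDAHFD, the genotypes differed past the threshold in no gene of the set. Between KO CDAHFD and WT CDAHFD, 0 of the 44 genes were called higher (0.0864% of all genes tested were) and 0 lower (0.271%) by edgeR, 7 had an unadjusted p under 0.05 (8.77%), and DESeq2 called 0 higher (0.657%) and 1 lower (0.755%). The log2 fold changes ran from -0.47 ± 0.14 for C8b to 0.37 ± 0.13 for C2. Between KO CDAHFD and KO chow, 5 genes were lower (2.44% of all genes), namely Fga, Fgb, Cpb2, Mbl2 and Cfi (-0.49 ± 0.12 at an adjusted p of 0.0321), and 0 were higher (3.76%). Between KO chow and WT CDAHFD, 4 genes were higher (2.71%), Kng1, Cpb2, Mbl2 and Cfi, and 1 was lower (3.42%), C1s1. Both counts depend on single libraries, and KO chow has only 2. When single libraries were left out, 1 to 7 genes were lower in KO CDAHFD than in KO chow, with 1 left without KO chow replicate 1 or 2 or KO CDAHFD replicate 1 or 3, and 3 without WT CDAHFD replicate 1 or 3. Of the KO chow against WT CDAHFD comparison, 1 higher gene was left without KO chow replicate 1 or 2, any of the WT CDAHFD replicates or KO CDAHFD replicate 1, 3 were lower without WT chow replicate 1, and 0 were lower without KO chow replicate 1 or any of the WT CDAHFD replicates.

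The interaction of genotype and diet tests whether the difference between KO and WT was the same on both diets. It contains the KO chow against WT chow difference with its sign turned. Where the difference on CDAHFD is small, the sign is thus nearly set by KO chow and is no separate result. The interaction was positive for 24 of the 44 genes (8.63% of all genes tested) and negative for 5 (14.5%). All of the 24 except C2 were lower in KO chow than in WT chow, and the largest values were those of F11 (1.36 ± 0.25 at an adjusted p of 0.00163), Klkb1 (1.26 ± 0.23 at an adjusted p of 0.00181), Proc (1.17 ± 0.22 at an adjusted p of 0.00194), C8g (1.17 ± 0.29 at an adjusted p of 0.0106), F7 (1.15 ± 0.18 at an adjusted p of 5.69e-04) and Masp2 (1.13 ± 0.16 at an adjusted p of 3.35e-04). The negative ones were C1qb (-1.43 ± 0.28 at an adjusted p of 0.00266), C1qc (-1.35 ± 0.30 at an adjusted p of 0.00604), C1qa (-1.24 ± 0.27 at an adjusted p of 0.00580), Mbl2 (-0.83 ± 0.22 at an adjusted p of 0.0155) and Pros1 (-0.56 ± 0.18 at an adjusted p of 0.0393), the genes that were higher in KO chow. Fibrinogen was not among them, with 0.46 ± 0.23 at an adjusted p of 0.183 for Fga, 0.53 for Fgb and 0.51 for Fgg. Without WT CDAHFD replicate 2 the positive count was 15, without KO chow replicate 2 or KO CDAHFD replicate 2 it was 16, and without KO chow replicate 1 there were 17 positive and 3 negative. With library size as the only scaling, 11 were positive (3.89% of all genes) and 6 negative (24.6%).

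**Figure D5:**
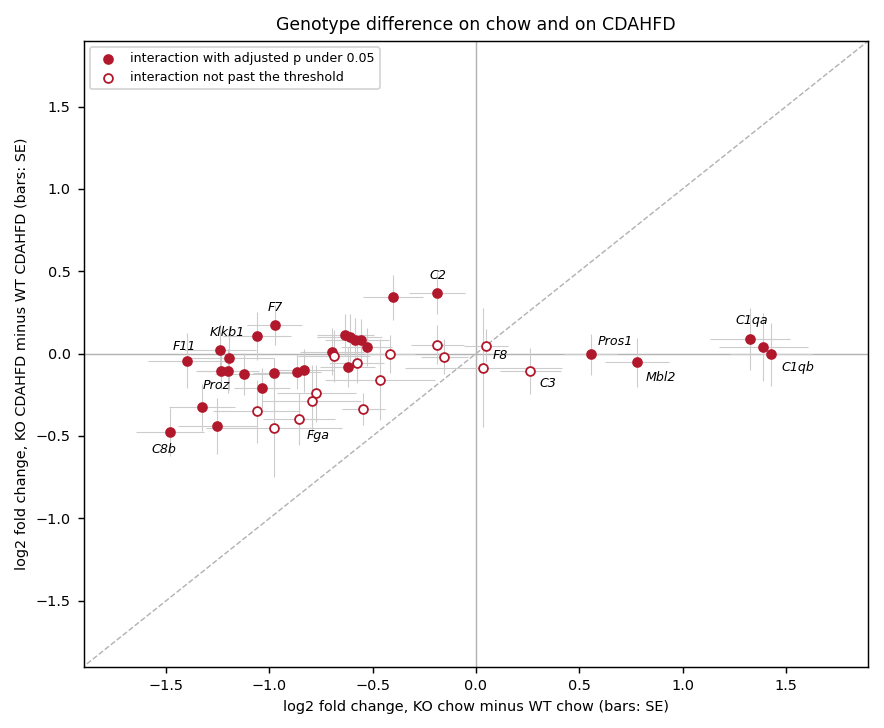
Log2 fold change between KO and WT on chow (horizontal) and on CDAHFD (vertical) of the 44 genes, with bars for the SE; filled points had an interaction with an adjusted p under 0.05, and the dashed line marks equal differences. The points spread along the horizontal axis from -1.48 (C8b) to 1.43 (C1qb) and stay between -0.47 and 0.37 on the vertical axis.

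Other genes of these pathways were followed in a list of 48, of which 46 were tested. KO chow had 16 of them higher (34.8%, against 22.0% of all genes tested) and 12 lower (26.1% against 17.0%). WT CDAHFD had 15 higher (32.6% against 26.1%) and 17 lower (37% against 25.0%). The largest changes were rises in complement receptors and genes of plasminogen activation. Itgax, the integrin chain of complement receptor CR4, was at 1.20, 0.913, 1.27 and 0.367 CPM in WT chow, 15.9 and 19.6 CPM in KO chow, 64.3, 61 and 53.8 CPM in WT CDAHFD, and 59.9, 54.4 and 76.5 CPM in KO CDAHFD. Itgam, the chain of CR3, changed by 2.998 ± 0.35 at an adjusted p of 2.54e-05 in KO chow and 4.71 ± 0.32 at an adjusted p of 1.67e-07 in WT CDAHFD. Plat (tissue plasminogen activator) was at 0.854, 0.315, 0.200 and 0.229 CPM in WT chow, 8.92 and 5.70 CPM in KO chow, 13.4, 14.2 and 11.3 CPM in WT CDAHFD, and 13.6, 16.7 and 18.8 CPM in KO CDAHFD. Plaur, the urokinase receptor, rose by 3.80 ± 0.26 at an adjusted p of 4.10e-07 and 4.78 ± 0.24 at an adjusted p of 2.29e-08, and Thbs1, a platelet and matrix protein, by 3.36 ± 0.33 at an adjusted p of 6.91e-06 and 4.24 ± 0.31 at an adjusted p of 3.33e-07. All 5 rose from levels of at most 2.68 CPM in WT chow. Summed markers of stellate cells and cholangiocytes were higher in the same groups, which did not hold for endothelium. Of 6 endothelial markers, 1 was higher in KO chow (22.0% of all genes), and 0 were higher and 3 lower in WT CDAHFD (26.1% and 25.0%). Summed over 6 stellate cell markers, the level was 82.65 to 130.8 CPM in WT chow, 363 and 366 CPM in KO chow, and 436 to 620.1 CPM in the CDAHFD groups. Of these, 3 of 6 markers were called higher in KO chow (22.0% of all genes) and in WT CDAHFD (26.1%). Over 5 cholangiocyte markers the summed level was 46.05 to 79.39 CPM, 165 and 288 CPM, and 358 to 883 CPM, with 4 of 5 higher in KO chow (22.0% of all genes) and 5 of 5 in WT CDAHFD (26.1%). Macrophage markers also rose, as given beside C1q, and the part of these cells in the rise of the 5 genes was not tested.

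Of 8 transcription factors of hepatocytes, 5 were lower and 0 higher in KO chow (17.0% and 22.0% of all genes tested). The counts were the same in WT CDAHFD (25.0% and 26.1% of all genes). Among them, Hnf4a changed by -0.94 ± 0.26 at an adjusted p of 0.0133 in KO chow and -0.80 ± 0.23 at an adjusted p of 0.0107 in WT CDAHFD, and Cebpa by -1.27 ± 0.30 at an adjusted p of 0.00467 and -1.15 ± 0.25 at an adjusted p of 0.00222. Hnf4a and Cebpa were higher in WT chow replicates 3 and 4 (654, 547, 998 and 1152 CPM for Hnf4a over the 4 libraries), those with the high clock score. Of 7 hepatocyte markers, 3 were lower (17.0% of all genes) and 1 higher (22.0%) in KO chow. From WT chow to KO chow, the mean of Ttr went from 7407 to 4647 CPM, of Apoa1 from 9304 to 5530 CPM and of Apoh from 2354 to 1394 CPM. Alb went from 68660 to 59630 CPM, Trf from 19180 to 20630 CPM, Ahsg from 8461 to 10180 CPM and Hpx from 4850 to 9729 CPM. In WT CDAHFD 5 were lower (25.0%), and Alb (albumin) changed by -0.86 ± 0.17 at an adjusted p of 9.00e-04. The part of either in the fall of the coagulation and complement genes was not tested.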

How the data were processed

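Liver RNA of 12 mice was sequenced in poly-A selected, non-directional libraries. Per the study's methods and the submitters' processing notes, the authors checked reads with FastQC 0.11.5, aligned them to GRCm38 with STAR 2.7.3a and deposited raw read counts per Ensembl gene; the counting program and annotation release are not given in the sources used here. Symbols came from GENCODE M21, which held 94.08% of the identifiers and 99.691% of the counts.

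Counts were analysed in R 4.3.3 with edgeR 4.0.16 (filterByExpr, TMM, glmQLFit and glmQLFTest with a mean per group over all 12 libraries, so that KO chow with 2 libraries shares the estimate of the spread), and Benjamini-Hochberg adjustment over 17358 genes. The SE is the log2 fold change divided by the root of F. Fits with DESeq2 1.42.0, other scalings, no filter, a replicate block, a clock gene score and each library left out were alternatives. The code was tested on simulated data. Some items looked at are not reported here. Total counts were 29906785 to 43551003 per library, and counting error is small beside the spread between libraries for genes at 200 counts or more. Motifs were counted with pandas 2.3.3 under Python 3.11.15, and matplotlib 3.10.9 drew the figures.

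The 44 genes, the other lists, the clock score and the tests were chosen with earlier results of these data known. Values in every library are given for genes past the threshold in the interaction, for the largest change of each role in KO chow and in WT CDAHFD, and for C1qa, C1qb, C1qc, C3 and Fga, and Itgax, Itgam, Plat, Plaur and Thbs1 are the other pathway genes with the largest changes. C4a and the genes of the closing section were chosen after their values were seen. Same-numbered libraries of different groups did not deviate together (r over 0.1 in 3 of 15 pairs, median -0.019), so the numbers were not taken as pairs. No batch is named in the labels, so one that follows the groups could not be told apart from them.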

Additional observations from a re-analysis of the deposited data

Results flagged for a closer look

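The genotype difference on CDAHFD minus that on chow passed the threshold of edgeR's quasi-likelihood test in 29 of the 44 genes. It was positive in 24 (8.63% of all genes tested) and negative in 5 (14.5%). On the log2 scale, the coagulation proteases and cofactors had values of 0.73 for F13b, 0.64 for F2, 1.15 for F7, 0.75 for F10, 1.17 for Proc, -0.56 for Pros1, 1.09 for Proz, 1.36 for F11, 1.26 for Klkb1 and 0.74 for Kng1. The inhibitors and fibrinolysis genes had 0.67 for Serpinc1, 0.71 for Serpinf2, 0.57 for Serping1, 1.0 for Plg and 0.54 for Cpb2. In the complement system, the values were -1.24 for C1qa, -1.43 for C1qb, -1.35 for C1qc, 0.76 for C1ra, 0.86 for C1s1, 1.13 for Masp2, 0.81 for Mbl1 and -0.83 for Mbl2. They were 0.56 for C2, 0.83 for C4b, 1.0 for C8a, 1.01 for C8b, 1.17 for C8g and 0.71 for Vtn. Each is the KO against WT difference on CDAHFD minus that on chow, and the chow side rests on 2 KO libraries. Where the difference on CDAHFD is small, the sign is nearly set by KO chow and is no separate result.

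In WT chow, the only group looked at in this way, 3 of the 44 genes had a library far from the other 3 by Dixon's test, a rate at which chance flags about 1 in 20 genes. Serpinf2 was 1430 CPM in replicate 2 and 1120 to 1140 CPM in the others. Cpb2 was 354 CPM in replicate 3 and 405 to 415 CPM in the others. C4b was 2330 CPM in replicate 1 and 1860 to 1930 CPM in the others.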

How the results depend on the processing

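Counts of the 44 genes are given as higher and lower. With library size as the only scaling, which called 6.62% of all genes lower in KO chow instead of 17.0%, 17 instead of 32 were lower in KO chow. It gave 6 and 20 for WT CDAHFD (52.4% and 6.74% of all genes), 7 and 21 for KO CDAHFD (56.3% and 6.31%), 3 and 1 for KO CDAHFD against KO chow (1245 and 138 of all 17358 genes), 2 and 5 for KO chow against WT CDAHFD (242 and 1025 of all 17358 genes), and a positive interaction for 11 (3.89%). Under that scaling the sign turned for Kng1 in KO chow (0.0071), for F9 (0.0781), C1ra (0.0125), C1s1 (0.0358), C2 (0.0927) and C4bp (0.4094, past the threshold) in WT CDAHFD, and for Kng2 (0.0848), C2 (0.5069, past the threshold) and C4bp (0.5067, past the threshold) in KO CDAHFD, a scaling that moves the median of all genes up. DESeq2 called 1 gene lower between KO CDAHFD and WT CDAHFD (131 of all 17358 genes), 1 higher between KO CDAHFD and KO chow (1236 of all genes), and 3 lower between KO chow and WT CDAHFD (1189 of all genes). Its size factors in edgeR gave 1 higher between KO CDAHFD and KO chow (702 of all genes). The clock score as a covariate gave 8 lower in KO CDAHFD against KO chow (780 of all 17358 genes) and 7 higher in KO chow against WT CDAHFD (1230 of all genes). With the replicate block, 1 was lower between KO CDAHFD and KO chow (213 of all 17358 genes), and 1 higher and 0 lower between KO chow and WT CDAHFD (270 and 461 of all genes). The positive interactions were 17 with that block (1055 of all genes), although the numbers do not pair the libraries. The cause of these differences was not tested.

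Leaving out a library at a time gave 5 to 6 higher and 26 to 32 lower for KO chow, 3 and 35 for WT CDAHFD, 3 and 34 to 35 for KO CDAHFD, 0 and 0 between the CDAHFD groups, 0 to 1 and 1 to 7 between KO CDAHFD and KO chow, 1 to 5 and 0 to 3 between KO chow and WT CDAHFD, and 15 to 25 positive and 3 to 5 negative interactions. Counts of calls in the 3 comparisons with WT chow stayed within 1.5 times of those reported under all alternatives other than library size. With 2 KO chow libraries, a difference in that group rests on few animals. F8 and Cfb were the genes at the lowest levels, at most 30.4 CPM, and the level of Cfb is uncertain because of its shared exon bases.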

Other observations

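Among genes of the same pathways outside the set of 44, several plasma proteins made by hepatocytes were lower, with Hc (the gene of C5) at -0.86 ± 0.15 at an adjusted p of 7.57e-04 in KO chow and -0.81 ± 0.13 at an adjusted p of 2.39e-04 in WT CDAHFD and Hrg, a histidine-rich plasma protein, at -1.21 ± 0.14 at an adjusted p of 2.81e-05 and -1.05 ± 0.12 at an adjusted p of 1.43e-05. The receptors of C3a and C5a, which myeloid cells carry, were higher, with C3ar1 at 2.24 ± 0.26 at an adjusted p of 2.97e-05 and 3.76 ± 0.25 at an adjusted p of 1.50e-07 and C5ar1 at 2.72 ± 0.26 at an adjusted p of 5.27e-06 and 4.03 ± 0.24 at an adjusted p of 7.51e-08. Ggcx, the carboxylase that modifies the vitamin K dependent proteins, was lower, at -0.72 ± 0.14 at an adjusted p of 0.00150 and -0.76 ± 0.12 at an adjusted p of 2.38e-04, in the same comparisons as 6 of the 7 genes of its substrates (17.0% and 25.0% of all genes tested were lower). These genes were chosen after their values were seen, and the comparisons share the WT chow libraries.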
